A study of Mus musculus with 2 samples.

Results

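The 10 genes described here encode ligands and receptors of the VEGF and angiopoietin systems: Vegfa, Vegfb, Vegfc, Kdr, Flt1, Flt4, Angpt1, Angpt2, Tek and Tie1. They were chosen by symbol and matched by Ensembl identifier, and all 10 were found among 43346 mouse gene identifiers, with 34 annotated transcripts between them. The study sequenced poly(A) RNA of whole ovary from C57BL/6J female littermates aged 8 weeks, as 1 group of 2 libraries, and the labels name no treatment. Replicate 1 held 41124064 gene counts and replicate 2 held 34930872. Both libraries cite 1 donor record, so the spread between them may be technical, and no condition could be compared. In whole tissue, fewer cells of a type and less RNA per cell cannot be told apart.

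VEGF ligands are secreted dimers that act on receptor tyrosine kinases of endothelial cells. Vegfa acts on Kdr (VEGFR2), which carries most of its growth signal, and on Flt1 (VEGFR1), which binds it tightly but signals weakly. Vegfb binds Flt1, while Vegfc acts mainly on Flt4 (VEGFR3), a receptor of lymphatic and sprouting vessels. Angpt1 activates the receptor Tek (Tie2) and steadies vessels, Angpt2 can block or activate Tek depending on the setting, and Tie1 is a partner receptor of Tek without a well established ligand of its own. In the ovary, these systems are known for the vessels that grow around follicles and into each new corpus luteum.

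Vegfa had the highest level of the 10 genes and Angpt1 by far the lowest. The lead of Vegfa rests largely on transcripts shorter than 700 bases: its mean is 315 TPM with them and 96.7 without, when it is 1.23-fold and 1.55-fold above Vegfb. Levels are in TPM, a count per unit of transcript length scaled to a fixed library total, so they can be compared between genes. Vegfa stood at 307 TPM in replicate 1 and 322 in replicate 2 (315 ± 10.5, SD, n = 2), which placed it at the 98.0th percentile of protein-coding genes. Angpt1 stood at 0.270 and 0.280 TPM (0.275 ± 0.00707), at percentile 29.1 and on 32 and 28 counts. From the highest mean to the lowest, the order was Vegfa, Vegfb, Tie1, Flt4, Kdr, Angpt2, Tek, Flt1, Vegfc and Angpt1. The values of Vegfb and Tie1 overlapped between libraries, as did those of Tek and Flt1, and no other neighbours in that order did.

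**Figure D1:**
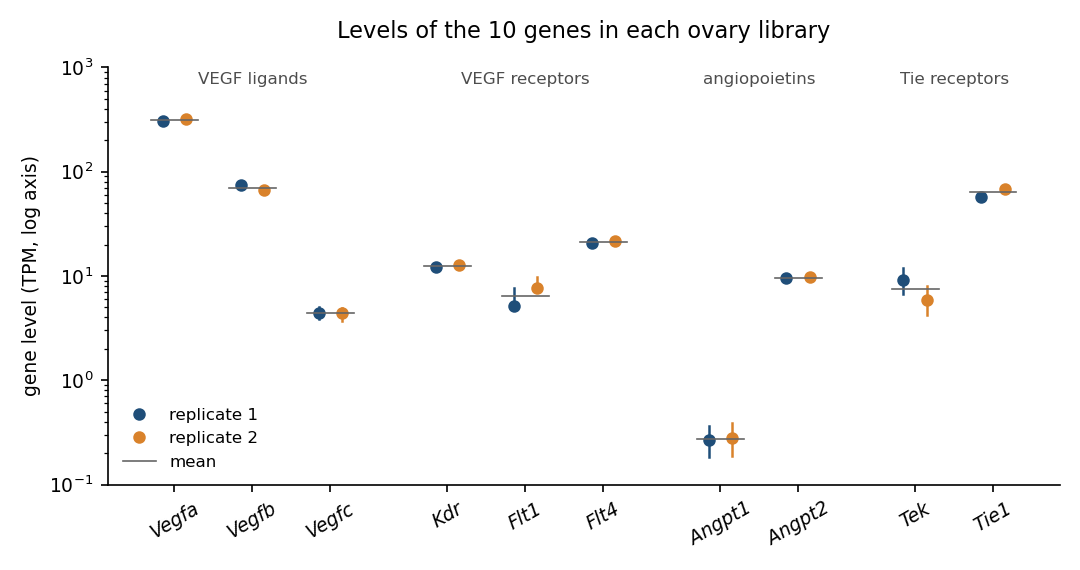
Gene level in TPM (log axis) of each gene in replicate 1 and replicate 2, with the authors' deposited bounds as vertical lines and the mean as a grey bar. Vegfa lies at 307 and 322 TPM and Angpt1 at 0.270 and 0.280, with the other 8 genes between 4.37 and 73.8 TPM.

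Vegfa, the main vessel growth factor (ENSMUSG00000023951.12, chr17:46016993-46032369, minus strand of mm10), gave 7209 counts in replicate 1 and 6811 in replicate 2. Its transcripts differ in whether they hold exons 6 and 7, which code for stretches that bind heparan sulphate. Forms without both exons diffuse freely and forms with both stay near the cell. The sequences show the join between exon 5 and the last exon in the 4 forms that had counts, because this join is what tells the forms apart. Capitals mark exon 6, exon 7 or both, and lower case the end of exon 5 and the coding start of the last exon, 5′ to 3′ on the minus strand, joined across introns within chr17:46018861-46024085 of mm10.
Vegfa-201, neither exon: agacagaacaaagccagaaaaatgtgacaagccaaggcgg
Vegfa-202, exon 7: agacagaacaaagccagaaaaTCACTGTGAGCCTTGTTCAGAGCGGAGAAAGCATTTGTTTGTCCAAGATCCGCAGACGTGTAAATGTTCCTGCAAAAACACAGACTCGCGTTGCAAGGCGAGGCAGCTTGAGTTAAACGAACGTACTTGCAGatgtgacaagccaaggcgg
Vegfa-207, exons 6 and 7: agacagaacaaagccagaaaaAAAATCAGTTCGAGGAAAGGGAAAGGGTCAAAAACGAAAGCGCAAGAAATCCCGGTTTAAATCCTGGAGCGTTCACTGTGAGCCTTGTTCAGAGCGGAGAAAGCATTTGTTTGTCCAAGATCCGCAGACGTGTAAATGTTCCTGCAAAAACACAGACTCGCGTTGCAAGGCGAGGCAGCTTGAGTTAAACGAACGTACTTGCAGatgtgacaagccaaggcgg
Vegfa-203, exon 6: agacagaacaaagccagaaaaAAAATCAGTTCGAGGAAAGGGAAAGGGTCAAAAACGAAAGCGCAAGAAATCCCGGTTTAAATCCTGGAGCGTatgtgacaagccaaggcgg
Exon 6 adds 72 bases and exon 7 adds 132. With a signal peptide of 26 residues removed, the encoded proteins have 120 residues without both exons, 144 with exon 6, 164 with exon 7 and 188 with both.

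By counts, the form without both exons led, but by mean TPM 3 short annotated transcripts did. Vegfa-201 received 2331 counts in replicate 1 and 2522 in replicate 2, which was 32.3% and 37.0% of the gene's counts. Vegfa-207, with both exons, received 1106 and 1657 counts, and Vegfa-202, with exon 7, received 1425 and 728. Replicate 2 thus held more of Vegfa-207 and less of Vegfa-202 than replicate 1. The authors' deposited TPM bounds did not overlap for Vegfa-207 (17.6 to 24.1 against 33.4 to 41.2 TPM). Nor did they for Vegfa-202 (12.1 to 17.9 against 6.49 to 11.9). Vegfa-206, a transcript without a coding sequence that also holds both exons, went the other way from Vegfa-207, at 541 and 362 counts. Among the coding transcripts Vegfa-201, Vegfa-207 and Vegfa-202 alone, the form without both exons took 46.1% and 45.9% of TPM. The form with both took 31.8% and 43.7%, and the form with exon 7 took 22.2% and 10.4%. That restriction was chosen after the values were seen. The annotated coding sequences of Vegfa-202 and Vegfa-207 begin upstream at a start other than ATG, and the last exon of Vegfa-207 is annotated as shorter than that of Vegfa-201.

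Of all Vegfa TPM, the share of coding transcripts with exon 6 alone was 33.0% in replicate 1 and 24.6% in replicate 2 (28.8% ± 5.97, SD, n = 2). That share is Vegfa-203, a 513-base model that the annotation tags as not supported in this organism, on 857 and 600 counts. Coding transcripts with neither exon took 11.3% ± 1.65, those with both 9.40% ± 3.44 and those with exon 7 took 3.85% ± 1.44. Transcripts without a coding sequence took 46.6% ± 2.33, led by Vegfa-209, a 463-base transcript whose last exon runs into an intron (22.3% and 32.3%). Vegfa-206, a 640-base transcript with a retained intron that holds both exons, took 14.4% and 10.5%. TPM divides counts by effective length, which was 236 and 258 bases for Vegfa-209 and 2538 and 2560 for Vegfa-201. Transcripts shorter than 700 bases therefore held 70.5% and 68.1% of the gene's TPM. Without them, a setting chosen after the values were seen, Vegfa stood at 90.5 and 103 TPM, still above the other 9 genes.

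**Figure D2:**
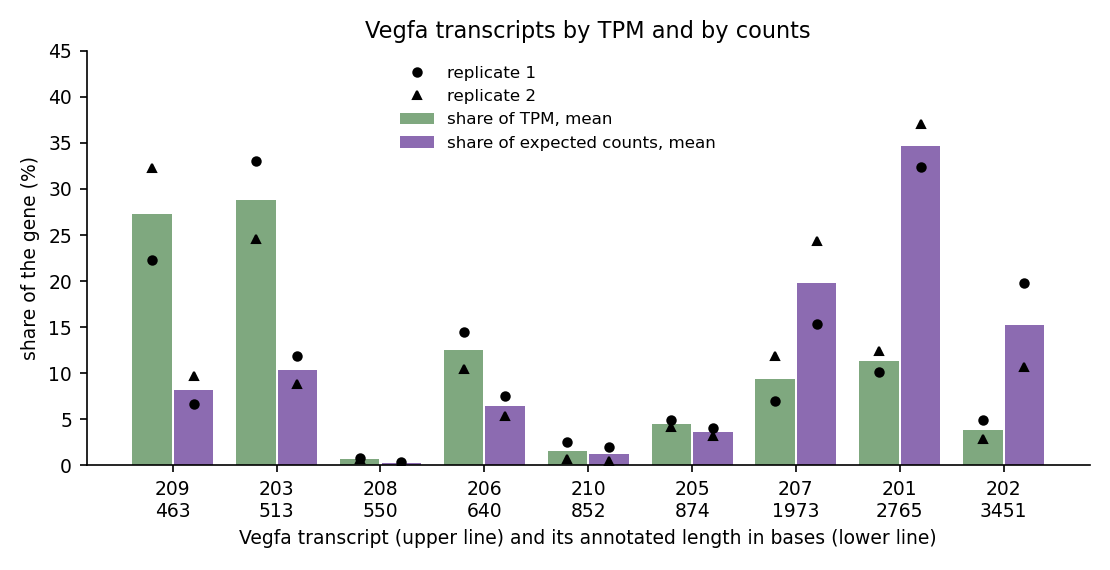
Share of Vegfa TPM and of Vegfa expected counts by transcript, ordered by annotated length, with bars for the mean and points for the 2 libraries (transcripts with a mean share of TPM over 0.5%). The short transcripts 209 and 203 lead by TPM, and the 2765-base transcript 201 leads by counts.

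Vegfb, a VEGF linked to fatty acid handling and heart vessels (ENSMUSG00000024962.9, chr19:6982473-6987651), stood at 73.8 TPM in replicate 1 and 66.5 in replicate 2. It has 2 main coding forms, whose difference is the stretch shown in capitals (minus strand, joined across an intron within chr19:6985475-6985825 of mm10).
Vegfb-201, stretch that Vegfb-202 lacks: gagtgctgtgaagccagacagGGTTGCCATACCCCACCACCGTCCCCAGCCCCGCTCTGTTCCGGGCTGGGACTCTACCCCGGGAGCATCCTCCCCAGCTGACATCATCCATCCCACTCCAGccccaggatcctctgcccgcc
The 101 added bases change the reading frame, and the coding sequence has 207 codons with them and 188 without. The form with the stretch encodes 186 residues after a 21-residue signal peptide and does not bind heparin, whereas the form without it encodes 167 and does. Vegfb-201 took 85.5% and 90.5% of the gene's TPM, and Vegfb-202 took 14.2% and 8.98%. In both libraries the longer-coding form was the major one.

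Vegfc, the lymphatic growth factor (ENSMUSG00000031520.5, chr8:54077606-54187096), stood at 4.44 TPM and 4.37 TPM on 217 and 180 counts, with 1 annotated transcript. Vegfa exceeded Vegfc 69.2-fold in replicate 1 (95% exact binomial interval 60.5 to 79.6, counting error only) and 73.7-fold in replicate 2 (63.6 to 85.9). It exceeded Vegfb 4.17-fold and 4.84-fold. Without transcripts under 700 bases these ratios fell to 20.4 and 23.5 over Vegfc and to 1.23 and 1.55 over Vegfb.

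Of the VEGF receptors, Flt4 was the highest and Flt1 the lowest in both libraries. Flt4 (ENSMUSG00000020357.3, chr11:49609263-49652739) stood at 20.9 TPM in replicate 1 and 21.5 in replicate 2 (21.2 ± 0.445, SD, n = 2). Kdr (ENSMUSG00000062960.7, chr5:75932827-75978458) stood at 12.1 and 12.7 TPM (12.4 ± 0.438). Flt1 (ENSMUSG00000029648.9, chr5:147561604-147726011) stood at 5.16 and 7.65 TPM (6.40 ± 1.76). Flt4 exceeded Kdr 1.73-fold and 1.69-fold, with counting intervals of 1.63 to 1.82 and 1.59 to 1.80. Kdr exceeded Flt1 2.34-fold in replicate 1 (2.17 to 2.54) but 1.66-fold in replicate 2 (1.53 to 1.81) on the TPM scale. By counts the ratio was 2.17 and 2.02, and the log2 ratios of Flt1 and Kdr differed by 0.10 with a counting SE of 0.08, within counting error. The deposited TPM bounds of Flt1 overlapped between libraries, at 4.78 to 7.68 in replicate 1 and 7.01 to 9.86 in replicate 2.

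Receptor genes can also give RNA for proteins that end before the membrane and are secreted, of which soluble Flt1 is the best known and traps Vegfa. The membrane stretch was located as the most hydrophobic window of 19 residues in each full-length frame, leaving out the frame's first residues. It lay at residues 763 to 781 of Flt1, 764 to 782 of Kdr, 776 to 794 of Flt4 and 764 to 782 of Tie1. Frames that end before it are shown next, because they define the soluble or truncated forms. The Flt1-201 sequence is joined across an intron, and the others are unbroken in the genome. Capitals mark bases read beyond the full-length frame, up to and including the stop codon, 5′ to 3′ on the gene's strand of mm10 (chr5:147639130-147639245, chr5:147654369-147655117, chr5:75962706-75962730 and chr4:118479584-118479633, minus strand, and chr11:49626375-49626434, plus strand, in the order printed).
Flt1-203, soluble form: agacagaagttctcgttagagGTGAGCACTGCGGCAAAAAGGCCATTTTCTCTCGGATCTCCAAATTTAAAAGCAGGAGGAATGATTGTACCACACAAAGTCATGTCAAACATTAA
Flt1-201, alternative last exon: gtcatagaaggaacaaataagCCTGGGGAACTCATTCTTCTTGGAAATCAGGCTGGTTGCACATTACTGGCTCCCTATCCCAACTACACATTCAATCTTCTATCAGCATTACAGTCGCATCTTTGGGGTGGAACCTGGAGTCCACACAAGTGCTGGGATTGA
Kdr-202, retained intron: agcctgctcctacagacccggGTGA
Tie1-203, reads into an intron: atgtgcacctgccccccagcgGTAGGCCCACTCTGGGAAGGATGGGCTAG
Flt4-202, reads into an intron: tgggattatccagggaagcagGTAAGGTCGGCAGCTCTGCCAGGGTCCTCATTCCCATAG
The frame of Flt1-203 leaves the full-length frame of 1333 codons after 657 and stops at 688. That of Flt1-201 leaves after 518 and would stop at 564, that of Kdr-202 would stop at 473, that of Tie1-203 stops at 647, and that of Flt4-202 would stop at 284. Of these 5 transcripts, Flt1-203 and Tie1-203 carry an annotated coding sequence, and translation was not measured.

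**Figure D3:**
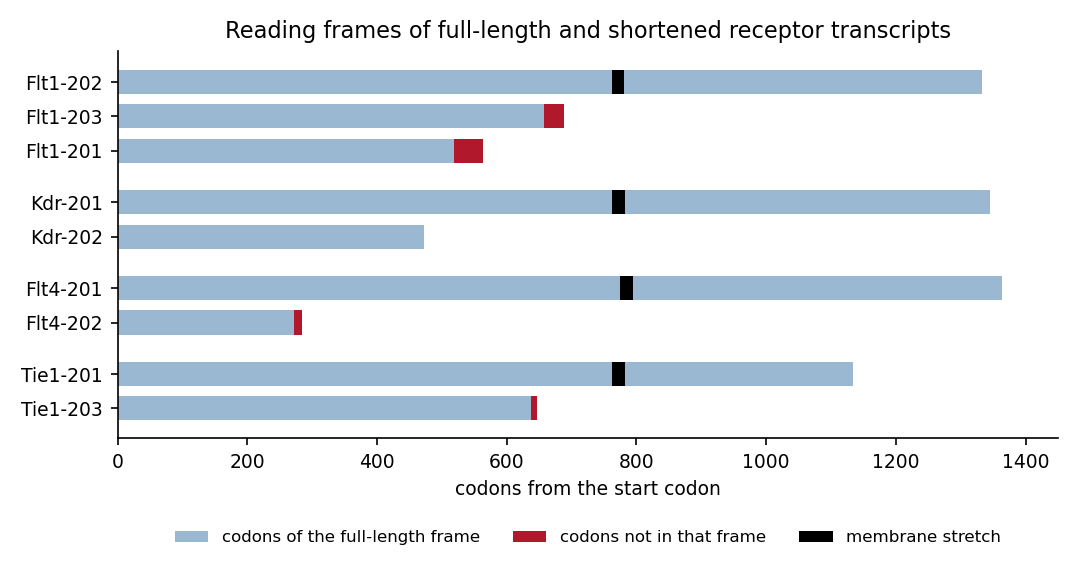
Codons from the start codon to the first stop in full-length and shortened receptor transcripts, with the membrane stretch in black and codons outside the full-length frame in red. The shortened frames end at 284 to 688 codons, before the membrane stretch of their full-length form.

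Soluble or truncated forms with an annotated coding sequence were a minor part of receptor RNA. Flt1-203 took 8.10% of Flt1 TPM in replicate 1 and 5.36% in replicate 2 (6.73% ± 1.94, SD, n = 2), on 74.9 and 61.4 counts. Its level was 0.420 and 0.410 TPM, nearly the same in both libraries. Tie1-203 took 2.87% and 4.64% of Tie1 TPM (3.75% ± 1.25). Kdr, Flt4 and Tek have no annotated coding form of this kind in the tables used, and a read-through form of Kdr listed in the later annotation was not analysed here.

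With the forms that lack a coding annotation included, a setting chosen after the values were seen, the Flt1 share was 20.8% in replicate 1 and 50.9% in replicate 2. That gap came with 1 transcript, Flt1-201. It stood at 0.650 TPM on 35.1 counts in replicate 1 and at 3.49 TPM on 158 counts in replicate 2. The authors' deposited bounds reached up to 1.35 TPM in replicate 1 and began at 2.43 in replicate 2, so they did not overlap. The full-length Flt1-202 stood at 4.09 and 3.76 TPM, with overlapping bounds. Its share of Flt1 TPM was 79.2% in replicate 1 and 49.1% in replicate 2. The largest share difference of Flt1, 32.9 points, was at the 94.5th percentile of 9449 genes that have several transcripts and enough counts (a mean of 100 or more).

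Kdr and Flt4 were mostly full length. Kdr-201 took 95.0% and 89.2% of Kdr TPM, and Kdr-202 took 5.04% and 10.8% on 53.0 and 100.3 counts. Flt4-201 took 99.2% in both libraries, and Flt4-202 took 0.780% and 0.750%. Of the 8 genes with several transcripts, 3 (Flt1, Tek and Vegfa) had a share that differed by over 10 points between libraries, against 40.3% of the 9449 genes.

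**Figure D4:**
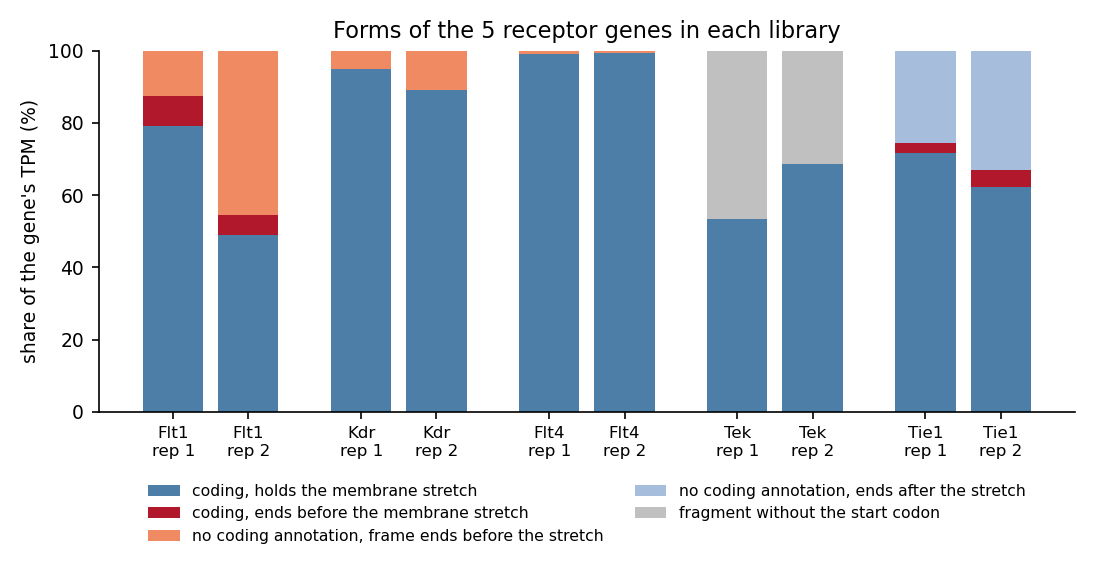
Share of each receptor gene's TPM by form, 1 bar per library (rep 1 and rep 2), with forms grouped by coding annotation and by whether they hold the membrane stretch. Flt1 differs most between the libraries, and Flt4 is 99.2% full length in both.

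Angpt2 exceeded Angpt1 in this tissue by a wide margin, and Tie1 exceeded Tek. Angpt2 (ENSMUSG00000031465.6, chr8:18690263-18741562) stood at 9.51 TPM in replicate 1 and 9.77 in replicate 2, on 937 and 806 counts. Angpt2 was 35.2-fold above Angpt1 (ENSMUSG00000022309.8, chr15:42424723-42676977) in replicate 1 (24.8 to 51.8) and 34.9-fold in replicate 2 (24.0 to 52.8). A further Tek ligand, Angpt4, stood at 24.6 TPM in each library (24.6 ± 0.0212), above both angiopoietins among the 10 genes.

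Tie1 (ENSMUSG00000033191.10, chr4:118471191-118490061) stood at 57.7 and 68.9 TPM on 6055 and 5895 counts. Its full-length Tie1-201 was level, at 41.3 and 42.9 TPM. Tie1-202 stood at 14.8 TPM in replicate 1 and 22.8 in replicate 2, with bounds that did not overlap. Tie1-202 holds the start codon and the membrane stretch, runs 366 bases past exon 14 into an intron and has no coding annotation, so it was not counted as soluble. It took 25.6% and 33.2% of the gene's TPM.

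Tek (ENSMUSG00000006386.11, chr4:94739289-94874976) stood at 9.15 TPM in replicate 1 and 5.83 in replicate 2 (7.49 ± 2.35). Tie1 exceeded Tek 6.31-fold in replicate 1 (5.80 to 6.87) and 11.8-fold in replicate 2 (10.7 to 13.1). These intervals rest on gene counts and leave out how reads were split between transcripts. The deposited bounds of Tek ran from 6.74 to 12.0 TPM in replicate 1 and from 4.21 to 8.03 in replicate 2, and overlapped. Tek-204 held 46.7% of Tek TPM in replicate 1 and 31.3% in replicate 2. Tek-204 is a 361-base fragment without the start codon, at 4.27 TPM from 16.9 counts in replicate 1. In replicate 2 that fragment stood at 1.82 TPM from 7 counts. Without it, a setting chosen after the values were seen, Tek stood at 4.87 and 4 TPM, below Flt1 in mean, and Tie1 exceeded it 11.8-fold and 17.2-fold. Tek-202 lacks the exon shown in capitals (plus strand, joined across introns within chr4:94798701-94804305 of mm10), which Tek-201 and Tek-203 hold.
Tek exon that Tek-202 lacks: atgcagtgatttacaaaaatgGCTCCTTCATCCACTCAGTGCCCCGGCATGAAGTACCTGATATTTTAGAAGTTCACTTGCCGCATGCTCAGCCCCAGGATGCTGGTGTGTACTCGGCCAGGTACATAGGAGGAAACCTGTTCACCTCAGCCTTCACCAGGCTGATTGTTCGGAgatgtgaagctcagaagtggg
The exon has 153 bases and keeps the frame. Tek-202 took 18.4% and 17.9% of Tek TPM, Tek-201 took 28.9% and 50.8%, and Tek-203 took 5.98% and 0%. The deposited bounds of these 3 forms and of Tek-204 overlapped between libraries.

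The counts of the 10 genes were compared between the libraries with a two-sided exact binomial test after TMM scaling, with Benjamini-Hochberg adjustment over 15939 genes. It compares the reads of 2 libraries, not conditions. By this test 8947 genes differed, 56.1% of those tested, with 4646 (29.1%) higher and 4301 (27.0%) lower in replicate 2. Of the 10 genes, 4 were higher, 1 was lower and 5 did not pass, a share near that of all genes. Their median log2 ratio was 0.08, against -0.0056 over all genes tested.

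Tie1 was higher in replicate 2 by a log2 ratio of 0.26 (counting SE 0.03, exact binomial adjusted p = 5.6e-22), and Vegfa by 0.22 (SE 0.02, adjusted p = 4.4e-18). Flt1 was higher by 0.17 (SE 0.07, adjusted p = 0.0289) and Flt4 by 0.08 (SE 0.03, adjusted p = 0.0348). Tek had a log2 ratio of -0.29 (SE 0.09, exact binomial adjusted p = 0.00413). Over all genes tested the median absolute log2 ratio was 0.23, which Tek and Tie1 exceeded and Vegfa, Flt1 and Flt4 did not. On the log2(TPM + 1) scale, which has no test, the difference was 0.07 for Vegfa, 0.49 for Flt1, 0.04 for Flt4, -0.57 for Tek and 0.25 for Tie1. The deposited TPM bounds of Vegfa, Flt1, Flt4 and Tek overlapped between libraries, and those of Tie1 did not. The other 5 genes had log2 ratios between -0.08 for Vegfb and 0.10 for Angpt1, whose SE was 0.37. Direction depended on the scale. Per spike-in count, every log2 ratio was lower by 0.43 and all 10 genes were below 0, with 9 past the test. With library totals, Flt1 and Flt4 did not pass and Vegfb did (log2 ratio -0.14), and with Bonferroni adjustment Tie1 and Vegfa alone passed. Over all genes, library totals gave 3761 higher and 5515 lower, and spike-in totals 1142 higher and 11431 lower.

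**Figure D5:**
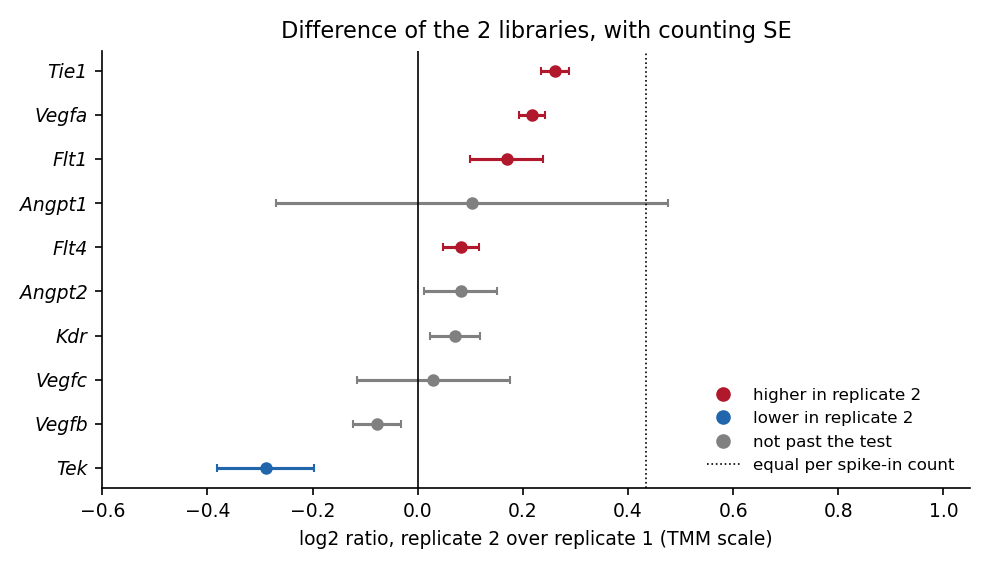
Log2 ratio of counts in replicate 2 over replicate 1 on the TMM scale, with the counting standard error as bars. The solid line marks equal levels and the dotted line, at 0.43, equal counts per spike-in count, and all 10 genes lie left of the dotted line.

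Other ligands and co-receptors of both families were measured too, and 5 of 13 were higher in replicate 2, 3 lower and 5 not past the same test, against 29.1% higher and 27.0% lower over all genes. Their median log2 ratio was 0.17, and per spike-in count 0 were higher and 8 lower. Among co-receptors, Nrp2, which binds Vegfc, stood at 24.9 ± 0.693 TPM (SD, n = 2) and was higher by 0.15 (exact binomial adjusted p = 4.0e-06), while Nrp1, which binds Vegfa, stood at 20.1 ± 2.91 TPM with a log2 ratio of -0.26 (adjusted p = 1.9e-11). Both were above Kdr and Flt1 in each library. Ccbe1, needed for Vegfc processing, stood at 34.1 and 42.2 TPM and was higher by 0.43. Vegfd, the second lymphatic ligand, stood at 5.96 and 3.41 TPM with a log2 ratio of -0.66 on 251 and 129 counts. Pgf, a ligand of Flt1, stood at 2.50 and 2.81 TPM, and Ptprb, the phosphatase of Tek, at 4.75 and 4.20 TPM with a log2 ratio of -0.14. The PDGF ligands Pdgfa, Pdgfb and Pdgfc, which recruit mural cells, were higher in replicate 2, at mean levels of 39.8, 34.6 and 13.6 TPM, while Pdgfd at 5.02 TPM did not pass. Apln (5.24 TPM) and its receptor Aplnr (26.9 TPM), active in sprouting vessels, did not pass either.

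Among 16 genes of signal relay below the receptors, 9 were higher in replicate 2, 1 was lower and 6 did not pass, with a median log2 ratio of 0.19, against 29.1% higher and 27.0% lower over all genes. Per spike-in count 2 were higher and 9 lower, with a median of -0.24. The most abundant were the kinase Akt1 (236 ± 3.28 TPM, SD, n = 2), the phospholipase Plcg1 (135 ± 28.2) and Foxo1 (110 ± 17.9), a transcription factor that Akt restrains. Akt1 was the lower one, by a log2 ratio of -0.05, and Plcg1 did not pass at -0.01. Of 12 listed genes of the hypoxia response that controls Vegfa, Ca9 was not found under that symbol and so was left out. Of the other 11, 7 were higher, 2 lower and 2 did not pass, with a median of 0.14, and per spike-in count 3 were higher and 6 lower. The glucose transporter Slc2a1 stood at 97.7 ± 0.0141 TPM and did not pass. The oxygen-sensitive factors Hif1a (72.1 and 99.0 TPM) and Epas1 (63.6 and 64.8 TPM) were higher by 0.47 and 0.07.

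The tissue label was checked against cell markers, whose mean TPM stands in brackets. Of the granulosa genes, Inha (6837 TPM), Amh (317) and Inhbb (308) were abundant, and Foxl2 (49.8), Fshr (21.5) and Cyp19a1 (8.54) were lower. Theca genes were abundant (Cyp11a1 1334, Insl3 636, Cyp17a1 219), and luteal genes included Sfrp4 (874), Akr1c18 (39.4) and Ptgfr (35.7). All 12 blood endothelium markers reached 1 TPM in both libraries, led by Egfl7 (333), Sox17 (285) and Eng (164). They summed to 1233 TPM in replicate 1 and 1304 in replicate 2. Sox17 alone stood at 244 and 326 TPM, and the median log2 ratio of the 12 was -0.04. Mean levels of the 12 ran from 4.95 TPM (Tal1) to 333 (Egfl7). Which cells gave the RNA of each marker was not tested, so the sums are not a measure of endothelial RNA alone. Of the 12, 5 were higher in replicate 2, 3 lower and 4 not past the test, against 29.1% higher and 27.0% lower over all genes. Per spike-in count 2 were higher and 9 lower. Lymphatic markers (Ccl21a 137, Pdpn 9.52, Reln 7.91) summed to 178 and 154 TPM, and pericyte markers (Des 180, Pdgfrb 76.2, Notch3 49.1) to 343 and 372. Ccl21a alone made up 149 and 125 TPM of the lymphatic sums, and the median log2 ratio of the lymphatic markers was 0.06. Markers from outside the ovary proper were present: oviduct (Ovgp1 577, Foxj1 125, Tmem212 75.7) summed to 838 and 762 TPM, adipocyte (Cfd 2427, Plin1 183, Adipoq 136) to 2415 and 3171, and erythroid genes (Hba-a2 714, Hba-a1 528, Hbb-bs 375) to 1085 and 2254. All 5 erythroid genes and 4 of 5 adipocyte genes were higher in replicate 2, against 29.1% of all genes. Vegfa, Tie1, Flt1 and Flt4, 4 of the 10 members, were higher too. The part of the erythroid and adipocyte genes in those differences was not tested. Per spike-in count 4 of 5 erythroid and 1 of 5 adipocyte genes were higher.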

How the data were processed

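Poly(A) RNA of mouse ovary was sequenced in 2 libraries. The authors' deposited gene and transcript tables use build mm10 with GENCODE M4, per the accompanying notes. Aligner and quantifier: not given in the sources used here. Values the authors deposited are expected counts, TPM, FPKM, bounds on TPM (a signal whose confidence level is not stated), and each transcript's percent of its gene's TPM. Gene names, exons and coordinates came from GENCODE M21 (mm10). Of 43346 identifiers 42462 matched, and 31 of 34 transcripts had the same length in both versions. Sequences are M21 transcript sequences. Reading frames and the hydrophobic window of 19 residues were computed from these transcripts, although a RefSeq protein had been planned.

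Spike-ins, 0.764% and 0.986% of counts, stayed out of library sizes. Expected counts were rounded, a mean count of 20 was required, and TMM scaling was applied (edgeR 4.0.16, R 4.3.3). A quasi-likelihood test leaves no residual degrees of freedom when each side is a single library. The two-sided exact binomial test (scipy 1.17.1) was used, adjusted by the Benjamini-Hochberg method at 0.05. It was run on simulated data that held counting error alone. That run cannot show how the test behaves when libraries vary beyond counting error. Log2 ratios used a prior count of 1. Counting errors and intervals ignore all other variation, among it how reads were split between transcripts. DESeq2 1.42.0 gave alternative size factors.

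The members, the gene lists and the tests were chosen with earlier results of these data known. Named genes are the 10 members, all other ligands and co-receptors, and the 3 most abundant genes of each further list. Named transcripts are those with at least 10% of a member's TPM, the soluble or truncated receptor forms and the Vegfa coding forms. Other genes and transcripts were named after their values were seen. Tables on another genome build were not used here.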

Additional observations from a re-analysis of the deposited data

How the results depend on the processing

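Per spike-in total, the log2 ratios reversed to -0.22 for Vegfa, -0.40 for Vegfc, -0.36 for Kdr, -0.27 for Flt1, -0.35 for Flt4, -0.35 for Angpt2 and -0.17 for Tie1, which follows from a shift common to all genes. The 5 members past the test became 9 on that scale, 3 with no filter on counts and 2 with Bonferroni adjustment, and the cause was not tested for the filter. Library totals also took Flt1 and Flt4 out of the calls and added Vegfb.

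Rescaling TPM to nuclear protein-coding genes moved the mean level by construction to 356 for Vegfa, 79.4 for Vegfb, 4.99 for Vegfc, 14.03 for Kdr, 24.0 for Flt4, 0.311 for Angpt1, 10.9 for Angpt2 and 71.6 for Tie1. Leaving out transcripts under 700 bases, added after seeing the data, gave 96.7 for Vegfa and 4.43 for Tek, and mean ratios of 1.39 for Vegfa to Vegfb and 22.0 for Vegfa to Vegfc. Posterior mean TPM gave 0.0291 for Angpt1 to Angpt2.

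Over protein-coding transcripts alone, the soluble share became 9.57% for Flt1 and 5.40% for Tie1. With frames that lack a coding annotation, added after seeing the data, it became 35.8% for Flt1, 7.93% for Kdr and 0.765% for Flt4. For Vegfa, shares of expected counts were 34.9% (neither exon), 15.2% (exon 7), 19.8% (both), 10.3% (exon 6) and 19.7% (non-coding). Protein-coding transcripts alone gave 21.3%, 7.15%, 17.8%, 53.8% and 0% in that order. The 3 long coding transcripts, added after seeing the data, gave 46.0%, 16.3% and 37.7% for neither exon, exon 7 and both. Counting the non-coding Vegfa-205, Vegfa-206 and Vegfa-210 by exon content, also added, gave 18.03%, 11.6%, 30.6% and 39.8% for neither, exon 7, both and exon 6. That setting left out Vegfa-208 and Vegfa-209. Vegfa-209, with neither exon, held 22.3% of the gene's TPM in replicate 1 and 32.3% in replicate 2. Measured by TPM, the order of the Vegfa forms therefore depended on which transcripts were counted.

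Leaving out either of the 2 libraries leaves the other's value, which is printed for each member in the report, and tests no stability. Of the other 163 alternative values, 111 kept their direction, side of the threshold or range. Some of these could not differ, so the tally is no measure of stability. Kdr, Flt4 and Tek have no annotated soluble coding form to count. Ratios within a library are the same in FPKM as in TPM apart from rounding, and the prior count does not enter the test. The log2(TPM + 1) differences moved beyond counting error from the count-based ratios for Vegfa (0.07), Flt1 (0.49) and Tek (-0.57). No paired analysis was possible because the series has 1 group. The 2 libraries cite 1 donor record, so biological spread is not known, and Angpt1 rests on 32 and 28 counts.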

Other observations

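The 9 genes of a list of vessel growth inhibitors had median levels of 74.0 TPM in replicate 1 and 67.7 in replicate 2, and mean levels from 1.505 (Sema3a) to 382 TPM (Serpinf1). Serpinf1, which encodes the secreted inhibitor PEDF, stood at 382 ± 45.3 TPM (SD, n = 2), against 315 TPM for Vegfa. Timp3, a metalloprotease inhibitor that binds Kdr, stood at 169 ± 10.3 TPM, and Sema3f, a ligand of Nrp2, at 130 ± 23.9 TPM. Of the 9 genes, 4 were higher in replicate 2, 4 were lower and 1 did not pass the exact binomial test, with a median log2 ratio of 0.23, where 56.1% of all genes tested passed. Sema3f was among the higher ones, with a log2 ratio of 0.50, whereas Serpinf1 and Timp3 each had a ratio of -0.23. Per spike-in count, 3 were higher and 5 lower.

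Retained-intron transcripts took a mean of 9.71% of a gene's TPM in replicate 1 and 10.1% in replicate 2 over the 9449 genes with several transcripts. Of the 5 retained-intron transcripts of Vegfa, Vegfa-209 had a larger share of the gene's TPM in replicate 2 and the other 4 a smaller one. Kdr-202, the one such transcript of Kdr, had a larger share in replicate 2.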
